A study of Mus musculus with 4 samples.

Results

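Acetaminophen (APAP) injures hepatocytes through a reactive quinone product, and the transcription factor NRF2 is the main switch of the cell's answer to such electrophiles. NRF2, listed as Nfe2l2, is held in the cytoplasm and marked for degradation by KEAP1. Electrophiles modify cysteines of KEAP1, NRF2 then accumulates, pairs with small Maf proteins and binds antioxidant response elements, short DNA motifs near genes for quinone reduction, thiol repair, cystine uptake and heme breakdown. The genes described here are Nfe2l2, Keap1 and 8 known NRF2 targets outside glutathione synthesis, namely Nqo1, Cbr3, Hmox1, Srxn1, Txnrd1, Slc7a11, Gpx2 and Osgin1. They were chosen by symbol, and all 10 were found among the 54149 genes of the deposited table. Of these, 9 passed the filter for the test and Gpx2 did not.

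RNA was sequenced from livers of adult female mice (strain C57BL/6 x 129S4/SvJae). The knockout mice lacked Utx (listed as Kdm6a, a histone H3 lysine 27 demethylase) in the liver only, and the wild-type mice were matched to them by age and sex. Every mouse had been fasted for 16 h and then given 300 mg/kg APAP by intraperitoneal injection, so the groups differ in genotype and share the fast and the drug. Each genotype had 2 libraries, and RNA of 2 mice was pooled for each library. There was no group without APAP, so induction by the drug cannot be read from these values. Neither the Cre driver nor the time from dosing to tissue collection is stated in the labels.

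Values are in FPKM, which divides a gene's fragments by its length and by the size of the library, so levels can be compared between genes. Each library held 16330451 to 17804730 recovered reads. Fold changes are knockout minus wild-type on the log2(FPKM + 0.5) scale from limma, with Benjamini-Hochberg adjusted p over the 11900 genes whose mean reached 1 FPKM. Of these genes 564 (4.74%) passed an adjusted p of 0.05, 190 higher (1.60%) and 374 lower (3.14%) in the knockout, a split of 211 and 255 when values were scaled to each library's listed reads. Kdm6a stood at 3.40 and 3.85 FPKM in wild-type and at 2.20 and 2.12 FPKM in knockout pools. Its log2 fold change of -0.63 (SE 0.13) did not pass (limma adjusted p = 0.0715). The per-gene value does not resolve exons, and the share of cells that lost the gene was not measured. The 9 hepatocyte markers found summed to between 30903 and 43436 FPKM in each pool. The number of passing genes rests on all 4 libraries: without wild-type replicate 2, limma called 0 of 11900 (2662 at an unadjusted p under 0.05). Without wild-type replicate 1 it called 10 higher and 20 lower, without knockout replicate 1 it called 3 and 2, and without knockout replicate 2 it called 51 and 183. With no filter on level it called 0 (4388 at an unadjusted p under 0.05).

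The promoter sequences of the genes with a motif match are shown first, since NRF2, AP-1 and ATF4 factors bind related elements and the lists of those factors are described further on. RefSeq promoter windows on GRCm38.p6, from 250 bases before to 50 bases after each annotated start, were found for 9 of the 10 genes, Hmox1 being the exception. Each window was searched on both strands for the antioxidant response element core TGACNNNGC, for the AP-1 site TGACTCA and for TGATGNAA, the core of elements bound by ATF4. The first pair share the letters TGAC, so a stretch can match both. These genes had 11 windows, 3 of them for Txnrd1. The antioxidant response element core was in 3 of the 11 windows, each of a different gene, against 12.4% of all 32851 windows. The AP-1 site was in 2 of the 11, against 5.20%, and the ATF4 core in 1 of the 11, against 3.97%. A match only describes the letters of the window, and the absence of one says nothing of sites elsewhere. The Osgin1 and Txnrd1 matches belong to RefSeq starts inside the gene spans of the deposited table. Those spans start at chr8:119434124 and chr10:82833951, so these matches are not upstream of the whole gene. Matches are in capitals, read 5′ to 3′ along the strand that carries the motif, with 10 flanking bases on each side.
Nfe2l2, antioxidant response element core, chr2:75704885-75704913, gene on the minus strand: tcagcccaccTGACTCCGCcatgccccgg
Srxn1, antioxidant response element core, chr2:152105542-152105570, gene on the plus strand, match on the minus strand: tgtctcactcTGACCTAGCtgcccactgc
Txnrd1, antioxidant response element core, chr10:82859104-82859132, gene on the plus strand, match on the minus strand: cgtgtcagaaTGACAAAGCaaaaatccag
Srxn1, AP-1 site, chr2:152105412-152105438, match on the minus strand: cacagcgtggTGACTCAggccctccga
Srxn1, AP-1 site, chr2:152105469-152105495, match on the minus strand: gcccggccgcTGACTCAgggtgaattt
Osgin1, AP-1 site, chr8:119437040-119437066, gene and match on the plus strand: gggcccctgcTGACTCAcgcttatgaa
Slc7a11, ATF4 core, chr3:50443662-50443689, gene and match on the minus strand: ctcatgtggcTGATGCAAacctggagaa
Slc7a11, ATF4 core, chr3:50443643-50443670, gene on the minus strand, match on the plus strand: ggctgcatgaTGATGCAAattctccagg

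**Figure D1:**
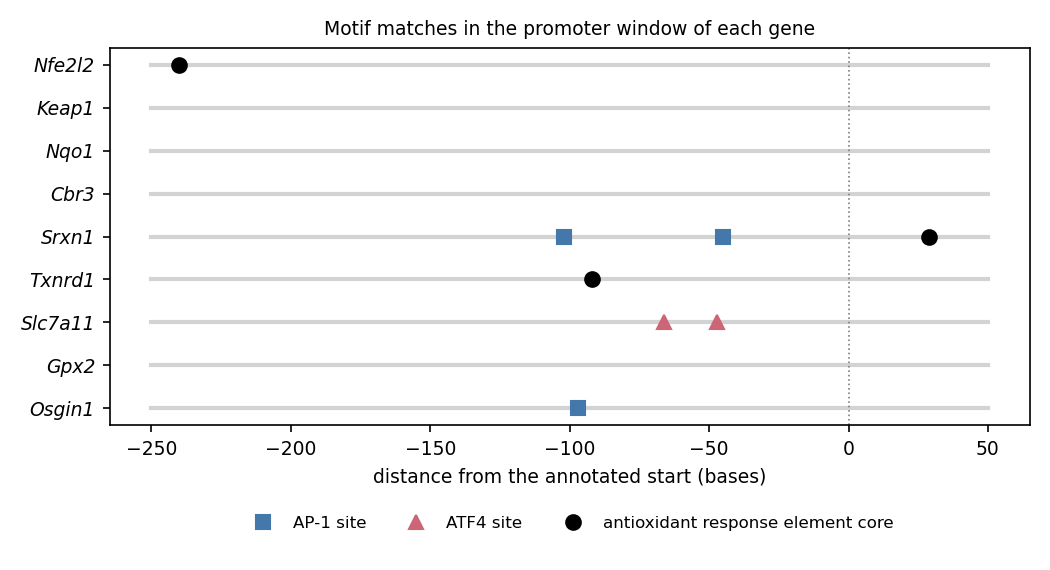
Position of motif matches in the 300-base promoter window of the 9 genes with a RefSeq window, with distance from the annotated start in bases on the x axis (grey bars, the window searched; for Txnrd1 the match lies in 1 of 3 windows). Antioxidant response element cores were found for Nfe2l2, Srxn1 and Txnrd1, AP-1 sites for Srxn1 and Osgin1, and the pair of ATF4 cores for Slc7a11. The RefSeq starts beside the Osgin1 and Txnrd1 matches lie inside the gene spans of the deposited table.

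The genes did not share a direction: log2 fold changes of the 9 tested ran from -1.90 to 2.34. Cbr3 and Slc7a11 rose and Osgin1 fell past the threshold, 3 of 9 tested against 4.74% of all genes, and the other 6 did not pass. The median log2 fold change of the 9 was -0.16, against 0.01 over all genes tested. The 2 pools of each genotype did not overlap for any of the 9, with 4 higher in the knockout, against 31.6% of all tested genes, and 5 lower, against 29.9%. In either direction, groups did not overlap for 61.5% of all tested genes. In bulk liver, fewer cells of a type and less RNA per cell cannot be told apart.

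**Figure D2:**
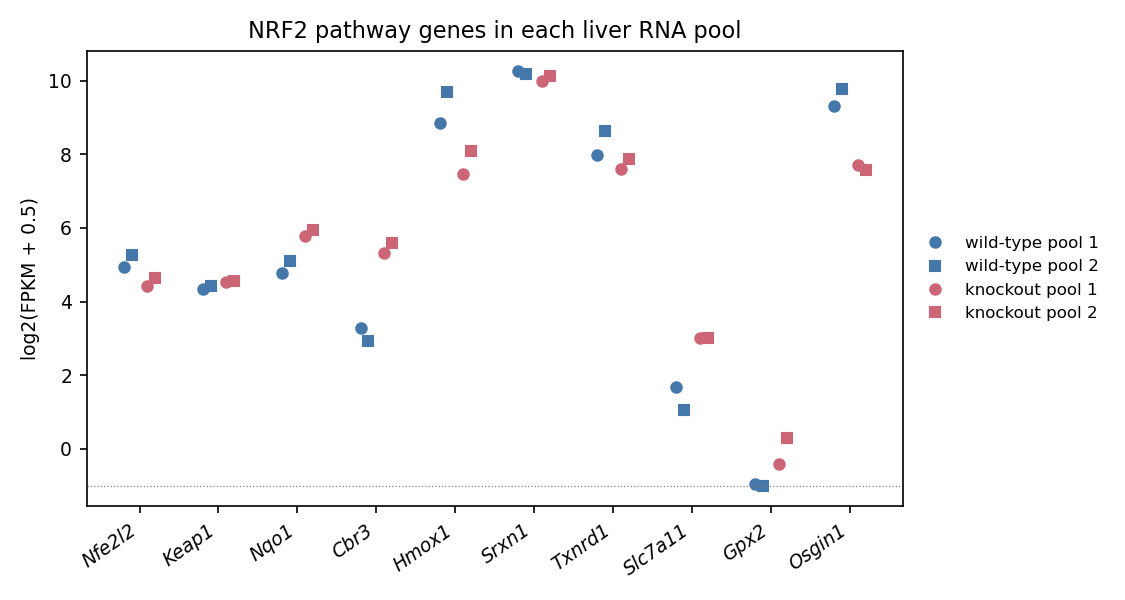
Level of each of the 10 genes as log2(FPKM + 0.5) in the 4 pools (blue, wild-type; red, knockout; circles, pool 1; squares, pool 2; dotted line, the value at 0 FPKM). Cbr3, Slc7a11, Nqo1 and Gpx2 sit higher in both knockout pools, Osgin1 and Hmox1 lower, and Srxn1 stays near the top in all 4 pools.

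Neither of the regulators themselves passed the threshold. Nfe2l2 (chr2:75675513-75704641) was at 30.3 and 37.8 FPKM in wild-type pools and 21.0 and 24.2 FPKM in knockout pools. Both knockout pools lay below both wild-type pools. The difference of -0.58 on the log2 scale (SE 0.16, 95% confidence interval -0.99 to -0.16) did not pass (limma adjusted p = 0.107). Gene coordinates here and below are those of the deposited table, on GRCm38.p6. Keap1 (chr9:21229730-21239361), the adaptor that presents NRF2 to a ubiquitin ligase, was at 19.7 and 20.8 FPKM in wild-type and 22.8 and 23.1 FPKM in knockout pools. Its log2 fold change was 0.18, with a 95% confidence interval from -0.09 to 0.44, and it did not pass (limma adjusted p = 0.318). The ratio of Nfe2l2 to Keap1 FPKM within a library, which no scaling of the libraries can alter, was 1.54 and 1.81 in wild-type and 0.920 and 1.05 in knockout pools. This ratio and those below were chosen after the values were seen and were not tested. NRF2 is controlled largely through protein stability, which RNA levels do not measure.

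Of the enzymes that reduce quinones and carbonyls, Cbr3 rose and Nqo1 was higher without passing. Cbr3 (ENSMUSG00000022947, chr16:93683215-93690990), a carbonyl reductase, was at 9.30 and 7.07 FPKM in wild-type and 39.4 and 47.3 FPKM in knockout pools. The reads behind them numbered 184 and 130 in wild-type and 821 and 949 in knockout. Cbr3 rose 5.30-fold in mean FPKM, or by 2.34 on the log2 scale (SE 0.18, 95% confidence interval 1.87 to 2.81, limma adjusted p = 0.0258), and ranked 26 of 11900 by the size of its rise. Leaving out wild-type replicate 2 (limma adjusted p = 0.0643) or knockout replicate 1 (0.0559) ended the call, while the log2 fold change stayed between 2.16 and 2.53 with any single library left out.

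Nqo1 (chr8:107388225-107403206), the quinone reductase most used as a readout of NRF2, was at 27.0 and 34.2 FPKM in wild-type and 54.0 and 61.1 FPKM in knockout pools. Both knockout pools lay well above both wild-type pools, and the mean was 1.88-fold higher. The log2 fold change of 0.91 (SE 0.16, 95% confidence interval 0.49 to 1.33) fell just short of the threshold (limma adjusted p = 0.0539). It passed in 5 of 17 alternative settings, among them limma voom on the recovered reads (adjusted p = 0.0282). Cbr1, the constitutive paralog and neighbour of Cbr3 on chromosome 16, was at 85.7 and 136 FPKM in wild-type and 168 and 164 FPKM in knockout pools and did not pass (limma adjusted p = 0.199). Cbr3 thus stood at 0.109 and 0.0518 of the Cbr1 level in wild-type pools and at 0.234 and 0.288 of it in knockout pools. Only 1 of 1254 windows of 50 bases in Cbr3 transcripts was shared with Cbr1, so few reads could fall on either gene.

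Genes whose 4-pool pattern was nearest to that of Cbr3, the NRF2 gene with the smallest p, were Chdh, Cyp26a1 and Ptgr1. Nearness is the Euclidean distance of log2(FPKM + 0.5) centred on each gene's mean over the 4 libraries, and came to 0.449, 0.450 and 0.464. Chdh oxidizes choline, Cyp26a1 breaks down retinoic acid, and Ptgr1 reduces alkenals and prostaglandins. All 3 were higher in both knockout pools than in both wild-type pools, which the choice by nearness to Cbr3 had already set.

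Slc7a11 rose from a low level. Slc7a11 (ENSMUSG00000027737, chr3:49892526-50443614), the light chain of the cystine and glutamate exchanger, was at 2.68 and 1.56 FPKM in wild-type and 7.51 and 7.53 FPKM in knockout pools, from 630, 342, 1863 and 1798 reads. The wild-type pools differed 1.71-fold while the knockout pools nearly coincided. Slc7a11 rose 3.55-fold in mean FPKM, or by 1.65 on the log2 scale (SE 0.23, 95% confidence interval 1.03 to 2.26, limma adjusted p = 0.0422). The call was lost with any of the 4 libraries left out: the adjusted p was 0.0561 and 0.0643 without wild-type replicates 1 and 2 and 0.123 and 0.0860 without knockout replicates 1 and 2. It was also lost when limma was run without a trend (adjusted p = 0.0557). Slc3a2, its heavy chain, was at 43.6 and 44.5 FPKM in wild-type and 60.5 and 62.6 FPKM in knockout pools and did not pass (limma adjusted p = 0.0735). The Slc7a11 to Slc3a2 ratio was 0.0614 and 0.0351 in wild-type and 0.124 and 0.120 in knockout pools.

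Slc7a11 is a target of ATF4 as well as of NRF2, and its promoter window carries the ATF4 cores printed above. Of Ddit3, Atf4 and Atf5, Ddit3 alone passed. Ddit3, which encodes CHOP, fell from 305 and 348 FPKM to 53.9 and 53.8 FPKM (log2 fold change -2.59, limma adjusted p = 0.0258). Atf3, described further on with the AP-1 factors, fell as well (log2 fold change -2.54, limma adjusted p = 0.0258). So did Trib3, another gene of that arm, named after its values were seen (log2 fold change -1.22, limma adjusted p = 0.0412). Atf4 itself, named after its values were seen, was at 109 and 153 FPKM in wild-type and 73.2 and 78.7 FPKM in knockout pools and did not pass (limma adjusted p = 0.0973). Atf5, likewise named after its values were seen, went the other way without passing (log2 fold change 0.38, limma adjusted p = 0.282). The call of Ddit3 was lost without wild-type replicate 2 (adjusted p = 0.0643) and without knockout replicate 1 (0.0559).

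Gpx2 (chr12:76792333-76795554), a selenium-dependent glutathione peroxidase best known from gut epithelium, was close to undetected. It was listed at 0.0184 and 0 FPKM in wild-type and 0.244 and 0.724 FPKM in knockout pools, from 1, 0, 14 and 40 reads. Relative to library totals the read rate was 52.6 times higher in the knockout, with an exact 95% interval from 9.05 to 2116 that covers counting error only. The knockout pools themselves differed 2.97-fold. Gpx2 did not reach the filter, and with no filter its limma adjusted p was 0.251. The gene overlaps Fntb on the opposite strand, where 102 to 155 reads were listed in each library, and strand marking is not stated. Of the 50-base windows in Gpx2 transcripts, 5.97% were shared with the pseudogene Gpx2-ps1.

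Osgin1, an abundant transcript, fell. Osgin1 (ENSMUSG00000074063, chr8:119434124-119446256), a stress-induced growth inhibitor, was at 629.9 and 877.0 FPKM in wild-type and 210.5 and 188.4 FPKM in knockout pools, from 8635 to 36875 reads. The lowest wild-type pool stood far above the highest knockout pool. Osgin1 fell by 1.90 on the log2 scale (SE 0.21, 95% confidence interval -2.45 to -1.34, limma adjusted p = 0.0315), and the wild-type mean was 3.78 times the knockout mean. The call was lost with any library left out, at an adjusted p of 0.0613 and 0.0643 without wild-type replicates 1 and 2 and 0.0931 and 0.0741 without knockout replicates 1 and 2. Osgin1 stood at 23.3 and 25.7 times the Nqo1 level in wild-type pools and at 3.90 and 3.08 times it in knockout pools.

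Hmox1 (chr8:75093621-75100589), the inducible heme oxygenase, was at 458.5 and 821.3 FPKM in wild-type and 176.9 and 271.3 FPKM in knockout pools. The highest knockout pool lay below the lowest wild-type pool, but pools of the same genotype differed 1.79-fold in wild-type and 1.53-fold in knockout. The difference of -1.48 on the log2 scale (SE 0.37, 95% confidence interval -2.45 to -0.52) did not pass (limma adjusted p = 0.0933). Without a single library the log2 fold change ranged from -1.90 to -1.06. Hmox2, the constitutive heme oxygenase, named after its values were seen, was between 17.7 and 19.6 FPKM in all 4 pools, so the Hmox1 to Hmox2 ratio was 25.9 and 42.4 in wild-type and 9.46 and 13.9 in knockout pools.

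Kupffer cells and macrophages also express Hmox1. Their 15 fixed markers summed to 614.5 and 492.6 FPKM in wild-type and 356.1 and 559.4 FPKM in knockout pools, with a median log2 fold change of -0.13. Of the 15, 10 had a negative log2 fold change, as did 5789 of all 11900 tested genes. In both knockout pools 3 were lower than in both wild-type pools, against 29.9% of all tested genes. None were higher, against 31.6%. Cd163, a scavenger receptor for hemoglobin, fell (log2 fold change -0.80, limma adjusted p = 0.0467), 1 of 15 against 3.14% of all tested genes. The other 14 did not pass, and 0 were at 0 in all pools. Neutrophil markers summed to 433.3 and 543.1 FPKM in wild-type and 195.5 and 202.1 FPKM in knockout pools over 14 genes, of which 10 were tested. Of those 10, 5 fell (S100a8, S100a9, Lcn2, Clec4d and Mmp9), against 3.14% of all tested genes, and 0 of the 14 were at 0 in all pools. All 10 were lower in both knockout pools than in both wild-type pools, against 29.9% of all tested genes. Over the 14, 11 were lower in this way and 1 was higher. Lcn2 is also an acute phase gene, so neither the sum nor its fall is specific to neutrophils. The 7 cholangiocyte markers summed to 266.3 and 104.1 FPKM in wild-type pools, which differed widely, and to 42.9 and 20.9 FPKM in knockout pools. Of 4 tested, Sox9 fell (log2 fold change -1.83, limma adjusted p = 0.0258), against 3.14% of all tested genes. The other 3, of which 1 was higher in the knockout, did not pass. None of the 10 sinusoidal endothelial markers passed, and 6 were lower in both knockout pools, against 29.9% of all tested genes. Sums of the 10 were 106.8 and 101.3 FPKM in wild-type and 75.5 and 82.6 FPKM in knockout pools. The part of macrophages, neutrophils, cholangiocytes and endothelial cells in the values of Hmox1, Osgin1 and the other NRF2 genes was not tested.

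**Figure D3:**
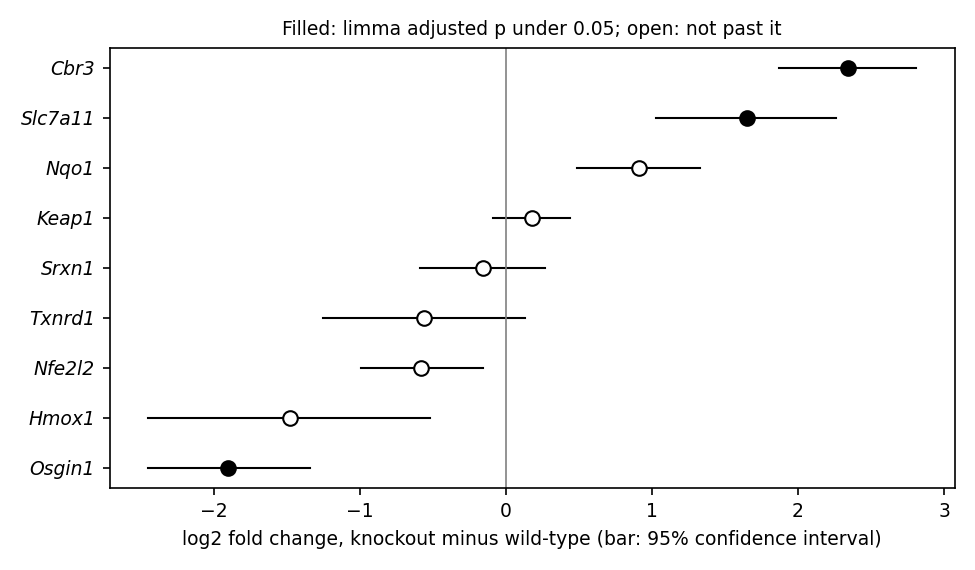
Log2 fold change (knockout minus wild-type, log2(FPKM + 0.5) scale) of the 9 tested genes with 95% confidence intervals from limma, filled where the adjusted p was under 0.05. Cbr3 and Slc7a11 lie to the right and Osgin1 to the left, while the intervals of Keap1, Srxn1 and Txnrd1 include 0.

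The thiol repair enzymes did not pass. Srxn1 (chr2:152105516-152111376), the sulfiredoxin that restores overoxidized peroxiredoxins, was the most abundant of the 10 genes, at 1218 and 1163 FPKM in wild-type and 1013 and 1113 FPKM in knockout pools. It ranked 44 among the tested genes by mean level in wild-type and 46 in knockout pools. Its log2 fold change was -0.16, with a 95% confidence interval from -0.59 to 0.27 (limma adjusted p = 0.558). Txnrd1 (chr10:82833951-82897712), the cytosolic thioredoxin reductase, was at 250.9 and 394.5 FPKM in wild-type and 193.7 and 234.6 FPKM in knockout pools. The knockout pools were lower than both wild-type pools, but the wild-type pools differed 1.57-fold, and the log2 fold change of -0.56 (SE 0.26) did not pass (limma adjusted p = 0.251). Without wild-type replicate 2 it was -0.23 and without wild-type replicate 1 it was -0.89.

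The order of levels shifted between the genotypes. In wild-type livers Srxn1 came first, then Osgin1, Hmox1, Txnrd1, Nfe2l2, Nqo1, Keap1, Cbr3, Slc7a11 and Gpx2. Within each wild-type pool Osgin1 stood above Hmox1 and Nfe2l2 above Nqo1, although the ranges of both pairs overlapped across pools. In knockout livers Srxn1 was again first, and Hmox1, Txnrd1 and Osgin1 could not be ordered, since their order was reversed between the pools. Nqo1 and Cbr3 came next and stood above Keap1 and Nfe2l2, which overlapped each other. Among all tested genes Cbr3 ranked 4843 by level in wild-type and 1120 in knockout pools, and Osgin1 ranked 67 and 231.

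The wild-type pools differed among themselves more for some of these genes than for most. Hmox1, Txnrd1 and Slc7a11, 3 of the 9 tested, differed over 1.5-fold between the wild-type pools, against 13.1% of all tested genes. Between the knockout pools Hmox1 alone did, 1 of 9, against 12.9%. Wild-type pool 2 was higher than pool 1 for Hmox1 (1.79 times), Txnrd1 (1.57 times), Osgin1 (1.39 times), Nqo1 (1.26 times) and Nfe2l2 (1.24 times). It was lower for Slc7a11 (0.584 times), Cbr3 (0.760 times) and Srxn1 (0.955 times). Each pool is the only record of its 2 mice, so spread between animals cannot be read from it.

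**Figure D4:**
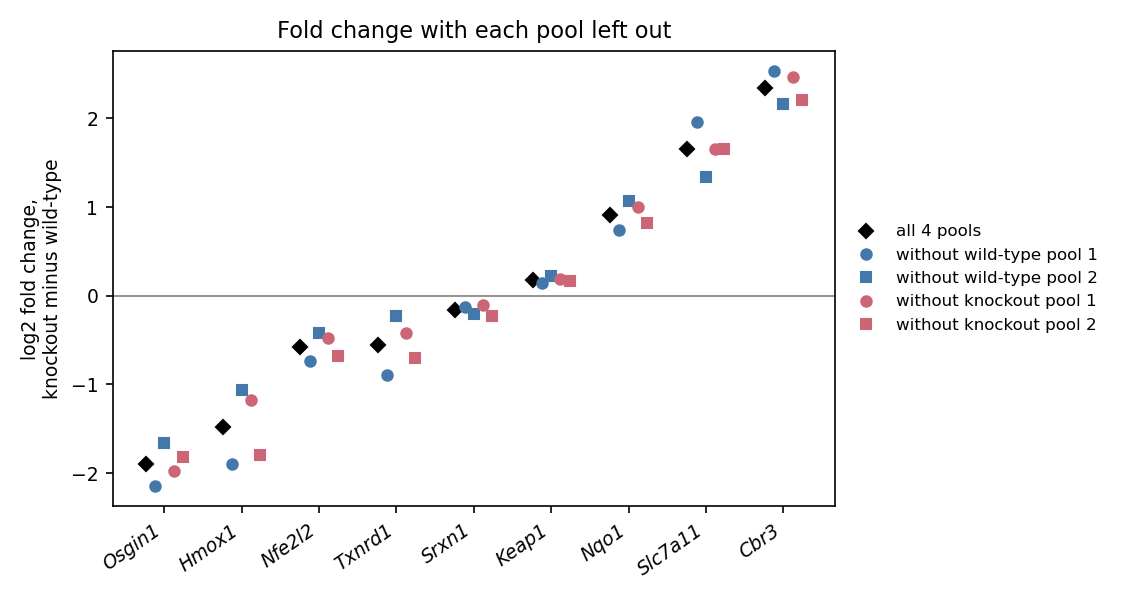
Log2 fold change (knockout minus wild-type) of the 9 tested genes from all 4 pools (diamonds) and with each pool left out (blue, a wild-type pool; red, a knockout pool). No gene crosses 0, and Hmox1, Txnrd1 and Slc7a11 move most with the choice of wild-type pool.

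Other genes were grouped by role in 10 lists, 8 of the NRF2 pathway, 1 of ATF4 and AP-1 factors and 1 of genes of the drug receptors CAR and PXR. The lists were chosen with earlier results of these data known, so their shares called only describe the genes listed. Over 138 genes, each counted once, 126 were tested, of which 8 rose, 12 fell and 106 missed the threshold (median log2 fold change 0.13), against 1.60% higher and 3.14% lower over all tested genes. The ATF4 and AP-1 list held 7 of the 12 falls, and the CAR and PXR list held 4 of the 8 rises and 1 fall. Among 19 tested regulators and partners, 3 fell, against 3.14% of all tested genes, 0 rose and the remaining 16 missed the threshold (median -0.10). Maff, a small Maf protein, fell from 459.5 and 470.7 FPKM to 59.6 and 102.7 FPKM (log2 fold change -2.56, limma adjusted p = 0.0315). Mafk fell from 58.0 and 72.3 FPKM to 19.8 and 26.8 FPKM, with a log2 fold change of -1.47. Bach1, a heme-regulated repressor that competes with NRF2 for the same elements, fell from 27.3 and 37.4 FPKM to 13.0 and 13.5 FPKM, with a log2 fold change of -1.24. The third small Maf gene, Mafg, was at 25.7 and 27.1 FPKM in wild-type and 23.3 and 24.7 FPKM in knockout pools and did not pass (limma adjusted p = 0.461). With single libraries left out the limma adjusted p reached 0.0817 for Maff, 0.101 for Mafk and 0.131 for Bach1. Maff and Mafk were lost without wild-type replicates 1 or 2 or knockout replicate 1, and Bach1 without any library.

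**Figure D5:**
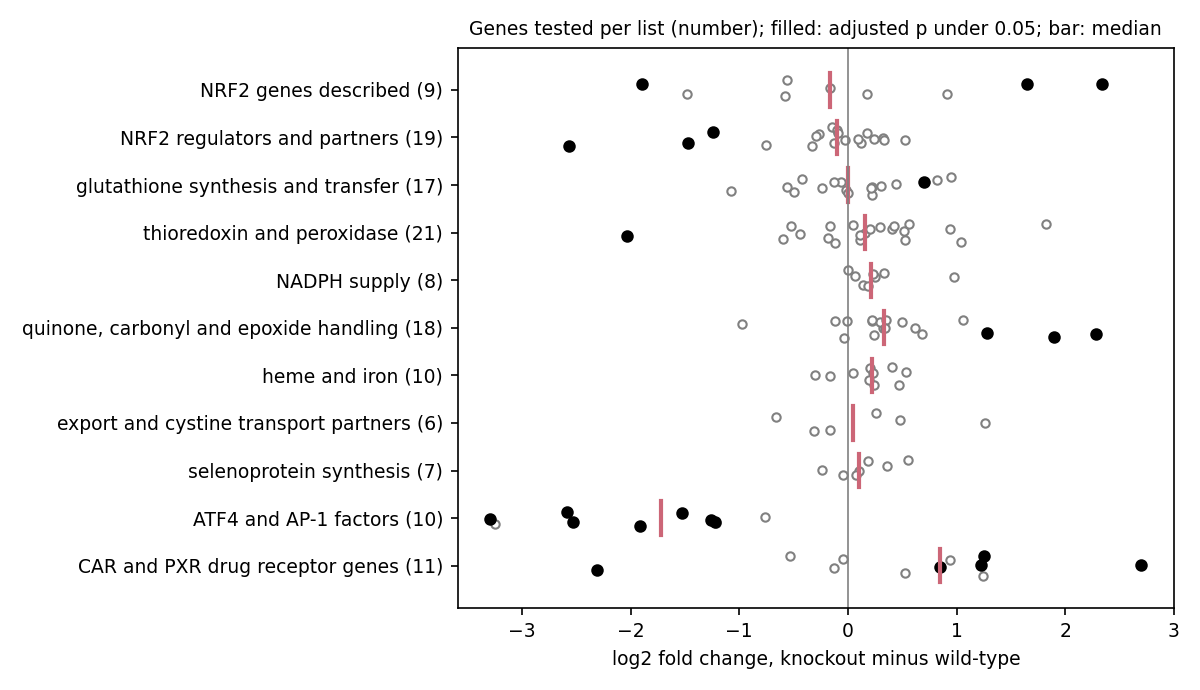
Log2 fold change (knockout minus wild-type) of every tested gene in the 11 lists, with the number tested in brackets, filled points for a limma adjusted p under 0.05 and a red bar at the median. The NRF2 genes have called points on both sides of 0, the quinone and carbonyl list on the right and the ATF4 and AP-1 list on the left.

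Among 18 tested genes of quinone, carbonyl and epoxide handling, 3 rose, against 1.60% of all tested genes, 0 fell and 15 missed the threshold (median 0.33). Log2 fold changes were above 0 for 14 of the 18, and for 6111 of all 11900. Ptgr1 rose from 1.96 and 1.30 FPKM to 6.23 and 8.66 FPKM (log2 fold change 1.90, limma adjusted p = 0.0350). Akr1c14, an aldo-keto reductase, and Ces1g, a carboxylesterase, had log2 fold changes of 2.28 and 1.28, and both belong to families of close copies among which reads can be divided wrongly. Ptgr1 and Ces1g were lost with any library left out, at adjusted p up to 0.0770 and 0.155. Akr1c14 was lost without wild-type replicates 1 or 2 or knockout replicate 1, at up to 0.0915.

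Among 17 tested genes of glutathione synthesis and transfer, which NRF2 also controls, 16 missed the threshold, 1 rose and 0 fell (median 0.00 to 2 decimals). The share called, 5.88%, was near the 4.74% of all tested genes. Gsta3, the transferase that rose, had a log2 fold change of 0.70 (limma adjusted p = 0.0477), and its adjusted p was 0.112 to 0.192 with a library left out. It was lost in 10 of 17 alternatives, among them scaling to the listed reads. Gclc, the catalytic subunit that limits glutathione synthesis, was at 600.1 and 866.4 FPKM in wild-type and 499.2 and 522.6 FPKM in knockout pools and did not pass (limma adjusted p = 0.237). Gclm, its modifier subunit, was at 50.9 and 59.2 FPKM in wild-type and 61.8 and 65.9 FPKM in knockout pools and did not pass (limma adjusted p = 0.337).

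Among 21 tested thioredoxin and peroxidase genes, 1 fell, 0 rose and 20 missed the threshold (median 0.16), a share called of 4.76%, near the 4.74% of all tested genes. Sesn2, a sestrin that restrains growth signalling under stress, fell from 14.6 and 25.4 FPKM to 4.18 and 4.52 FPKM (log2 fold change -2.03, limma adjusted p = 0.0392). Its call was lost without wild-type replicate 2 (adjusted p = 0.0643) and without knockout replicates 1 (0.114) or 2 (0.0718). Txnrd2, the mitochondrial counterpart of Txnrd1, was named after its values were seen: it was at 0.282 and 0.809 FPKM in wild-type and 3.56 and 2.68 FPKM in knockout pools (log2 fold change 1.83) and did not pass (limma adjusted p = 0.0539). No gene passed in either direction among 8 of NADPH supply (median 0.21), 10 of heme and iron (0.22), 6 of export and cystine transport (0.05) and 7 of selenoprotein synthesis (0.10). Fth1 and Ftl1, the ferritin chains and known NRF2 targets, were likewise named after their values were seen. They had log2 fold changes of -0.31 and -0.16.

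Among 10 tested ATF4 and AP-1 factors, 7 fell, 0 rose and 3 missed the threshold (median -1.72), against 3.14% of all tested genes lower. The list, chosen like the others with earlier results known, did not hold Atf5, given above. Atf3 fell from 923.8 and 1015 FPKM to 155 and 179 FPKM, Junb had a log2 fold change of -1.91 and Fosl2 of -1.53. The calls of Atf3, Junb and Fosl2 were lost without wild-type replicates 1 or 2 or knockout replicate 1, at limma adjusted p of 0.0553 to 0.0720. Srxn1 and Osgin1, whose windows carry an AP-1 site, had log2 fold changes of -0.16 and -1.90. For Osgin1 that window lies at a RefSeq start inside the gene span of the deposited table.

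Receptor-driven drug metabolism genes were on both sides. Among 11 tested genes of the xenobiotic receptors CAR and PXR, 4 rose, against 1.60% of all tested genes, 1 fell, against 3.14%, and 6 missed the threshold (median 0.84). Nr1i3, which encodes CAR, and Nr1i2, which encodes PXR, had log2 fold changes of 1.25 and 1.22, and each was lost with any library left out, at adjusted p up to 0.123. Cyp2b10, a classic CAR target, fell from 5.74 and 6.87 FPKM to 1.04 and 0.718 FPKM (log2 fold change -2.31, limma adjusted p = 0.0258), a call lost without wild-type replicates 1 (0.0642) or 2 (0.0647) or knockout replicate 1 (0.0559). Cyp2a5 had a log2 fold change of 2.70 and was lost without the same 3 libraries, at adjusted p up to 0.0869, and its reads cannot be divided with certainty from those of its close paralog Cyp2a4.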

How the data were processed

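RNA of 4 pools was sequenced after poly(A) selection, per the labels' protocols. The submitters' processing notes name HISAT2 2.0.5 as a tool and mm10 and GRCm38.p6 as builds. No label names a counting program or an annotation release. The authors deposited FPKM for 54149 genes with gene lengths and coordinates. FPKM times length was a whole multiple of 1 step per library for 100.0% of values above 0, within 0.01 read, which gave the reads quoted, and 0 sample columns were left out.

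The test was limma 3.58.1 in R 4.3.3 (lmFit, eBayes with trend, two-sided) on log2(FPKM + 0.5) for genes whose mean reached 1 FPKM. It had 2 residual and 2.59 prior degrees of freedom. Each p-value sets the group difference against the spread between pools, moderated by that of other genes of similar level. An exact permutation test of 2 against 2 pools cannot go below a two-sided p of 0.333, so none was run. The fit was tested on simulated data, where the share of false calls was above the threshold of 0.05.

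Named genes were the 10 genes, Kdm6a, Gclc, Gclm, Mafg, Cbr1, Slc3a2, up to 4 called genes of smallest p per list, markers beside a result and the 3 genes nearest to the gene of smallest p. Genes and lists were chosen with earlier results of these data known. Of the list symbols, 1 was not found. Promoter windows are RefSeq's on GRCm38.p6, and shared 50-base windows were counted in GENCODE M21 transcripts. Alternatives were the pseudocount, the filter, the scaling, the limma variant, limma voom with TMM scaling on the recovered reads, a test of protein-coding genes only, blocking by replicate number and leaving out each library. Plots were made in Python 3.11.15 (matplotlib 3.10.9).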

Additional observations from a re-analysis of the deposited data

How the results depend on the processing

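Over 17 alternatives, or 16 for Slc7a11, none of the 9 tested NRF2 genes changed the sign of its fold change. Of the calls, Cbr3 was lost in 3, Osgin1 in 5 and Slc7a11 in 6. With no filter 0 genes passed in either direction (4388 at an unadjusted p under 0.05), so 0 NRF2 genes and 0 other pathway genes did. limma without a trend called 80 genes higher and 200 lower, with 1 NRF2 gene higher and 3 and 7 other pathway genes higher and lower. limma voom called 386 and 698, with 18 other pathway genes higher, and protein-coding genes alone gave 408 and 606, with 14 higher. A minimum of 50 reads gave 322 higher. The replicate block called 74 genes higher and 236 lower and kept the calls of Cbr3, Slc7a11 and Osgin1. Samples of a number share only that number: the correlation of their deviations was -0.14, and the crossed pairing, chosen after seeing the data, called 213 and 339. Leaving out a library gave 0 to 51 genes higher and 0 to 183 lower, 0 to 1 NRF2 gene higher and 0 lower, and 0 to 2 other pathway genes higher and 0 to 11 lower. The lone library of a genotype is then assumed to vary like the other group. The limits are 2 pools per genotype, and for Gpx2 its 1 wild-type read.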
